A study of Mus musculus with 2 samples.

Results

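The 10 genes described here are Fos, Fosb, Fosl1, Jun, Junb, Jund, Egr1, Atf3, Ier2 and Ier3, 10 of the 32285 genes in the deposited count matrices. They were chosen by name, as genes of the AP-1 transcription factor and of the immediate-early response, by a rule that uses no measured value, although earlier results of these data were known when it was written. Their levels were read in 2 single-cell libraries of orthotopic mouse pancreatic tumors, by cell class. The question was how far their level belongs to a cell type, since the same genes are also induced while a tissue is being dissociated.

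Immediate-early genes are transcribed within minutes of a stimulus, without prior protein synthesis, from promoters that are already open. Growth factors, cytokines, calcium and stress reach them through MAP kinases, which activate serum response factor, its ternary complex partners, CREB and JUN itself. FOS and JUN proteins pair through leucine zippers to form AP-1, ATF3 joins the same network as a stress-induced partner, and EGR1 is a zinc finger factor. In neutrophils and macrophages the same genes are part of the response to activation. Enzymatic dissociation of a tissue is a further known inducer, together with heat shock genes.

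Both tumors arose from injected KPC cells, a line from mouse pancreatic cancer, placed under the capsule of the pancreas. The library labelled FLOX came from a host with floxed MCT1 alleles. The library labelled MCT1-KO came from a Col1a2-CreERT2 MCT1-/- host, in which a tamoxifen-inducible Cre driven by the Col1a2 promoter removes MCT1 from Col1a2-expressing fibroblast-like cells such as pancreatic stellate cells (PSCs). The tumor cells were therefore the same line in both libraries and carried no deletion. Before implantation hosts were injected with tamoxifen or with corn oil, and the sources do not say which of these the FLOX host received, how many tumors went into each library, or how old these hosts were. The tissue was digested with a Miltenyi multi-tissue kit, and removal of debris and dead cells was decided sample by sample, with no record of which sample received it. There was 1 library per group, so no difference between the groups was tested, genotype and library cannot be told apart, and every interval given here is a 95% interval that covers counting error only.

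The libraries held 177334432 UMIs (FLOX) and 151118092 UMIs (MCT1-KO). After the filters, 8739 and 11689 cells were kept, with a median of 4069 and 3706 UMIs and a median mitochondrial share of 2.23% and 2.50%. They shared 59 barcodes. Clusters named by fixed markers took in 70.3% and 66.6% of the kept cells, and 8 classes had at least 50 named cells in both libraries. The class size (FLOX and MCT1-KO) was 1879 and 3396 cells for tumor-like, 2463 and 2111 for macrophage-like, 759 and 706 for neutrophil-like, 479 and 525 for T/NK-like, 228 and 443 for PSC-like, 111 and 94 for dendritic-like, 81 and 117 for acinar-like and 71 and 145 for endothelial-like cells. The deleted gene, Slc16a1 (MCT1), was found at 25.6 CPM (57 UMIs) in FLOX and 35.3 CPM (113 UMIs) in MCT1-KO PSC-like cells, where CPM is the UMIs of a gene per 1000000 UMIs of the class. It was thus not lower under the MCT1-KO label, although a 3′ read does not check a deletion whose position in the gene is not given. The names FLOX and MCT1-KO are those of the labels. RNA outside cells was read from barcodes with 10 to 100 UMIs and is called free RNA. The 10 genes together reached 8791 CPM in free RNA of the FLOX library and 6527 CPM in that of the MCT1-KO library. Free RNA of the MCT1-KO library was also rich in acinar enzymes, with 17110 CPM of the acinar markers against 325 CPM in FLOX.

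The promoters of 4 of the genes are shown because these pairs of relatives differed in the comparison between libraries, Fos from Fosb and Jun from Junb. Each sequence is the RefSeq window on GRCm38.p6 of 250 bases before to 50 bases after the annotated start, written 5′ to 3′ on the strand of the gene, with motif matches in capitals. The windows are chr12:85473640-85473939 (plus strand) for Fos, chr7:19309996-19310295 (minus strand) for Fosb, chr4:95052173-95052472 (minus strand) for Jun and chr8:84978699-84978998 (minus strand) for Junb.
Fos: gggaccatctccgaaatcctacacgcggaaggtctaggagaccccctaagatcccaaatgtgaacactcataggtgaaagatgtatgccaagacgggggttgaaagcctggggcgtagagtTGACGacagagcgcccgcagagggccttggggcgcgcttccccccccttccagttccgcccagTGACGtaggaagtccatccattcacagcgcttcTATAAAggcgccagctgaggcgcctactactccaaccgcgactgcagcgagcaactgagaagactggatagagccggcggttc
Fosb: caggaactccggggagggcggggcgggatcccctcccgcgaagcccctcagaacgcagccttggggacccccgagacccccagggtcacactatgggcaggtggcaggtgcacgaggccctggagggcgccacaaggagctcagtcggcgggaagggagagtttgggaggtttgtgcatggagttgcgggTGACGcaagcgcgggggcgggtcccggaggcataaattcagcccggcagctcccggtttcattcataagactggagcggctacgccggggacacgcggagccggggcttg
Jun: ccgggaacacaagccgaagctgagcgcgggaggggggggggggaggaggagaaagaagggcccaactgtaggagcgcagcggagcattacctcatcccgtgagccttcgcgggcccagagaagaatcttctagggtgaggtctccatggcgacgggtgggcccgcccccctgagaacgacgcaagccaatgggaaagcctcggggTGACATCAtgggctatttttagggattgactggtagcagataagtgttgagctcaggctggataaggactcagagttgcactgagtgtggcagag
Junb: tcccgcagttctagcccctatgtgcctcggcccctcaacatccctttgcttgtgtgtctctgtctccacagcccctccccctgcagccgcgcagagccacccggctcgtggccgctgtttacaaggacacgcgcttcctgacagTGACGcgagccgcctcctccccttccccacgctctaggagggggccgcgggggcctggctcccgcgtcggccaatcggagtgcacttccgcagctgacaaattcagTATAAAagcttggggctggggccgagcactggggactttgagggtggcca
The letters searched on both strands were TGACG (the core of the cAMP response element, which CREB and ATF proteins bind), TGACGTCA (the whole element, which contains that core), TGANTCA (the TPA response element of AP-1), TGACATCA (the variant AP-1 element known from the Jun promoter), TATAAA (the TATA box) and the CArG box of serum response factor by name. Fos held TGACG at -129 and -66 from the annotated start and TATAAA at -33, and Fosb held TGACG at -60. In Jun the match was TGACATCA at -45, and in Junb TGACG at -106, with TATAAA at the annotated start itself. Of the other genes, Atf3 held the core at -7, printed CGTCA on its own strand, and Ier3 held none of the motifs. The RefSeq window of Jund lies before the gene start given here and is not described, and that of Atf3 is at a RefSeq start inside the gene. Among the 32851 RefSeq promoters TGACG was held by 20.8%, TGACGTCA by 1.79%, TGANTCA by 7.81%, TGACATCA by 3.62%, TATAAA by 13.6% and the CArG box by 1.63%. Fosl1 and Ier2 were not printed.

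Summed over the 10 genes, tumor-like cells stood highest of the 8 compared classes in both libraries, and T/NK-like cells stood lowest in FLOX. Among these classes the lowest MCT1-KO levels were those of acinar-like and dendritic-like cells, whose intervals overlapped. Named classes with under 50 cells in FLOX were not compared, and ranks given here leave them out. Of these, Epcam-epithelial-like cells (38 and 70 cells) held 8876 and 12628 CPM, in MCT1-KO above the tumor-like level. Their MCT1-KO levels were 1674 CPM of Jun, 1278 CPM of Fosb and 2575 CPM of Atf3. The FLOX cells of this name were led by Tff1, Tff2 and Gkn1, and the MCT1-KO cells by Ins2, Ins1 and Gcg. Their levels in FLOX and MCT1-KO are thus of unlike cells and not a comparison between the libraries. B-like cells (31 and 179 cells) held 5500 and 3099 CPM. The FLOX levels ran from 16788 CPM (interval 16743 to 16833) in tumor-like cells through 13858 CPM in neutrophil-like, 11230 CPM in PSC-like, 9760 CPM in endothelial-like, 9553 CPM in acinar-like and 9379 CPM in macrophage-like cells to 4876 CPM in dendritic-like and 4380 CPM in T/NK-like cells. In the MCT1-KO library the same sum was 10804 CPM (10776 to 10832) in tumor-like, 9997 CPM in PSC-like, 7102 CPM in neutrophil-like, 6479 CPM in macrophage-like, 6360 CPM in endothelial-like, 4336 CPM in T/NK-like, 3448 CPM in dendritic-like and 3320 CPM in acinar-like cells. Neutrophil-like and PSC-like cells exchanged places between the libraries. The tumor-like class holds deep clusters (median 18751 and 16501 UMIs). Some clusters had tumor markers as their largest marker share but stayed unnamed for too few detected markers. They lay lower, at 8487 to 13484 CPM over 4 FLOX clusters (2421 cells, medians of 894 to 3111 UMIs) and 5716 to 8803 CPM over 5 MCT1-KO clusters (3498 cells, medians of 693 to 1610 UMIs). Some were mixed. A FLOX cluster of 1091 cells led by Tpsb2 and Hbb-bs held 4542 CPM of macrophage and 840 CPM of tumor markers. An MCT1-KO cluster of 414 cells held 25854 CPM of acinar markers. The lead of tumor-like cells is thus that of the named clusters among the 8 compared classes. Dendritic-like and T/NK-like cells lay below the free RNA of their own library, at 0.555 and 0.498 times its level in FLOX and at 0.528 and 0.664 times in MCT1-KO. Acinar-like cells of MCT1-KO did too, at 0.509 times, and endothelial-like (0.974) and macrophage-like cells (0.993) of MCT1-KO were near it. From the level of acinar markers, free RNA was estimated to make up 34.3% and 8.38% of UMIs in dendritic-like and 49.1% and 14.3% in T/NK-like cells of FLOX and MCT1-KO, an estimate that assumes that these cells make no acinar RNA. The highest estimate was that of neutrophil-like cells, 57.8% and 39.7%. It was 30.4% and 11.7% in PSC-like and 29.8% and 14.15% in macrophage-like cells. The FLOX shares are too high for some genes, as they alone would bring more RNA than was found. Ier3 stood at 94.3 CPM in T/NK-like and 89.9 CPM in dendritic-like cells of FLOX, against 812 CPM in free RNA. Values given below with free RNA subtracted rest on these shares and may take out too much.

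**Figure D1:**
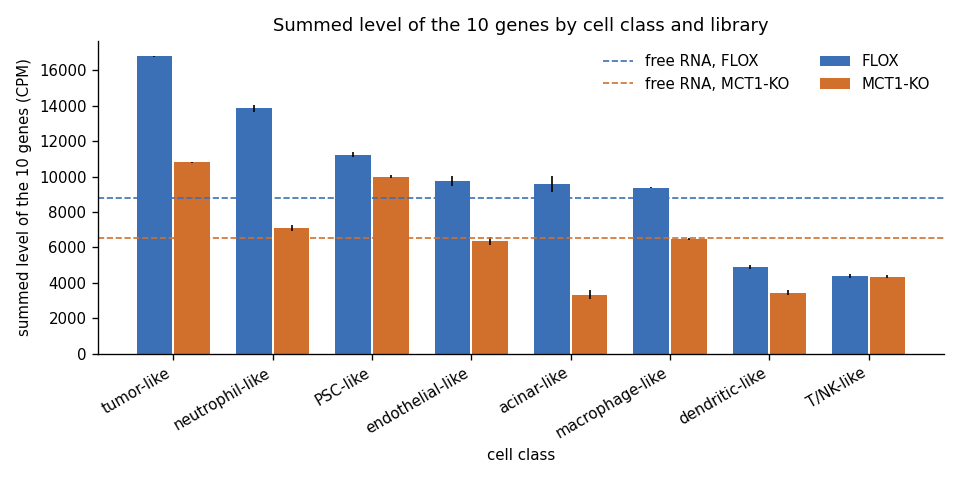
Bars give the summed level of the 10 genes (y axis, CPM) in 8 cell classes (x axis) of the FLOX and MCT1-KO libraries, with 95% counting intervals, and dashed lines give the same sum in free RNA of each library. Tumor-like cells were highest in both libraries (16788 and 10804 CPM), and the T/NK-like bars had overlapping intervals (4380 and 4336 CPM).

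Between the libraries, the summed level was lower in the MCT1-KO library in 7 of the 8 classes, with the interval of the ratio below 1. The ratio of MCT1-KO to FLOX was 0.348 in acinar-like, 0.512 in neutrophil-like, 0.644 in tumor-like, 0.652 in endothelial-like, 0.691 in macrophage-like, 0.707 in dendritic-like and 0.890 in PSC-like cells. In T/NK-like cells it was 0.990 (0.958 to 1.02), which holds 1, but this value depended on the processing. It ran from 0.707 with a minimum of 1000 UMIs to 1.62 with free RNA subtracted, and lay below 1 under 8 of 11 alternatives. The acinar-like sum depended on it too, at 1.04 with clusters named by their classed cells and 0.659 with cells classed by markers singly. Free RNA moved the same way, with a ratio of 0.743 for the summed genes. Of the 80 pairs of a gene and a class, 77 held at least 50 UMIs over both libraries, and of these 51 had a ratio below 1, 16 above 1 and 10 with an interval holding 1.

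These counts stand against a wide background, as classes with many UMIs have narrow counting intervals. In tumor-like cells 8 of the 10 genes were below 1 and 2 above, against 26.3% and 29.9% of 13089 genes with at least 50 UMIs. In macrophage-like cells it was 8 and 2 of 10, against 23.9% and 21.6% of 11126 genes, and in neutrophil-like cells 8 and 0 of 10, against 13.5% and 18.8% of 4769 genes. PSC-like cells had 6 genes below and 3 above 1 of 10 (background 18.4% and 15.5% of 8603 genes). Endothelial-like cells had 5 below and 1 above of 9 (17.4% and 9.76% of 3167 genes), and dendritic-like cells also 5 and 1 of 9 (14.5% and 14.3% of 4441 genes). T/NK-like cells ran the other way, with 2 below and 7 above of 10 (16.7% and 15.7% of 7082 genes). In acinar-like cells 9 of 9 were below 1, but so were 84.8% of the 547 genes compared (9.51% above). Acinar marker genes took 97752 CPM in FLOX and 435344 CPM in MCT1-KO acinar-like cells, which leaves a smaller share of the CPM total to every other gene. With CPM taken outside the acinar markers, mitochondrial, ribosomal and heat shock genes and the 10 genes, the acinar-like sum had a ratio of 0.501. Other acinar genes, such as Cpb1 and Pnliprp1 among the leading genes of the MCT1-KO cluster, stayed in that total. Acinar-like ratios are counted below but not described gene by gene.

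Ratios of 0.5 or less were found in 20 of the 77 pairs. Neutrophil-like cells held 5 such genes of 10 (Fos, Jun, Junb, Egr1 and Atf3) against 3.94% of all genes compared, macrophage-like cells 2 (Jun and Atf3) against 3.15%, dendritic-like cells 2 (Jun and Atf3) against 4.05%, endothelial-like cells 1 (Atf3) against 4.07%, tumor-like cells 1 (Jun) against 2.82% and T/NK-like cells 1 (Jun) against 2.75%. PSC-like cells held 0 against 3.57%, with Ier2 just outside at 0.501. In acinar-like cells it was 8 of 9, against 74.8%. The neutrophil-like count depended on how clusters were named. Named by their classed cells, Fos was at 0.717, Jun at 0.593, Egr1 at 0.594 and Atf3 at 0.697, and Junb alone of the 5 stayed at 0.5 or less (0.465). With cells classed by markers singly Fos (0.564), Egr1 (0.558) and Atf3 (0.578) lay above 0.5. Outside the neutrophil-like and acinar-like classes, every ratio of 0.5 or less belonged to Jun or Atf3.

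**Figure D2:**
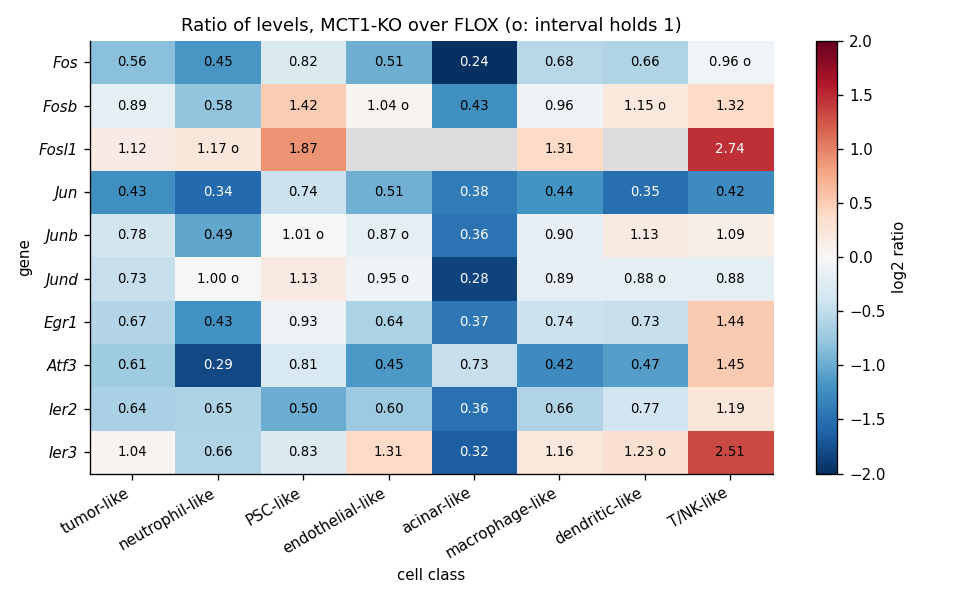
Each cell of the grid gives the ratio of the MCT1-KO level to the FLOX level of a gene (rows) in a class (columns), coloured on a log2 scale, with a small circle after values whose 95% counting interval holds 1 and grey where the pair had under 50 UMIs. The Jun row is below 1 in 8 of 8 classes, the Fosl1 row is above 1 wherever it was compared, and the T/NK-like column is mostly above 1.

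Fos, the founding AP-1 partner, which dimerises with JUN proteins and does not bind DNA as a homodimer, was highest in tumor-like cells of both libraries. The gene (ENSMUSG00000021250) lies on chromosome 12 at 85473890 to 85477273 of GRCm38, plus strand. Tumor-like cells held 5732 CPM (5706 to 5759) in FLOX and 3220 CPM (3205 to 3236) in MCT1-KO, a ratio of 0.562 (0.558 to 0.566). Neutrophil-like cells went from 3316 to 1483 CPM (0.447, or 0.717 with clusters named by their classed cells), endothelial-like cells from 2772 to 1405 CPM (0.507), macrophage-like cells from 3020 to 2061 CPM (0.683) and PSC-like cells from 3285 to 2702 CPM (0.823). In FLOX the neutrophil-like and PSC-like levels could not be told apart by their intervals, nor could those of macrophage-like and acinar-like cells. T/NK-like cells were at 899 and 867 CPM, a ratio of 0.964 (0.898 to 1.04) that holds 1. That ratio was 0.529 with a minimum of 1000 UMIs, 0.632 as the mean over cells and 0.522 without the tercile with most UMIs. It was 0.474 without cells holding 3 or more markers of a second class. This filter took out 2872 of 6140 named FLOX cells and 6416 of 7786 named MCT1-KO cells. Fos lay above the free RNA of its library (2410 and 1528 CPM) in 6 of 8 classes in FLOX and in 3 of 8 in MCT1-KO, namely tumor-like, PSC-like and macrophage-like cells.

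Cells were also thinned to 1000 UMIs each, so that shares of cells with a UMI can be compared at 1 depth. Cells under 1000 UMIs were left out of these shares, unequally in neutrophil-like cells (54 of 759 in FLOX and 269 of 706 in MCT1-KO), against 9 of 1879 and 12 of 3396 tumor-like, 22 of 228 and 50 of 443 PSC-like, 151 of 2463 and 124 of 2111 macrophage-like and 26 of 479 and 48 of 525 T/NK-like cells. Thinned, 95.5% of FLOX and 82.8% of MCT1-KO tumor-like cells had a Fos UMI (99.7% and 99.4% unthinned), and 87.7% and 61.6% of neutrophil-like cells (93.5% and 65.0% unthinned). The T/NK-like share was 46.6% and 35.0% (77.2% and 56.8% unthinned).

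Fosb, a FOS relative that is induced with it and whose splice form is known for its stability, behaved otherwise. It lies on chromosome 7 at 19302696 to 19310051, minus strand. The FLOX levels of tumor-like cells, 818 CPM (808 to 828), and of PSC-like cells, 774 CPM (738 to 812), had overlapping intervals. In MCT1-KO, PSC-like cells stood at the top of the compared classes with 1100 CPM (1064 to 1137) against 724 CPM (717 to 731) in tumor-like cells. The ratio was 1.42 (1.34 to 1.51) in PSC-like cells, 0.885 (0.872 to 0.899) in tumor-like cells, 0.956 in macrophage-like cells and 0.580 (0.485 to 0.691) in neutrophil-like cells. The PSC-like ratio was 1.01 with clusters named by their classed cells and 1.05 with cells classed by markers singly. Thinned, 49.0% of FLOX and 61.6% of MCT1-KO PSC-like cells had a Fosb UMI. Endothelial-like and dendritic-like ratios held 1. The neutrophil-like levels (362 and 210 CPM) lay under free RNA (553 and 532 CPM), and their ratio turned to 1.23 when clusters were named by their classed cells. With no upper limit on detected genes the tumor-like ratio turned to 1.24, and without cells holding 3 or more markers of a second class to 1.08. The T/NK-like ratio of 1.32 fell below 1, to 0.779, with a minimum of 1000 UMIs, under which cells were clustered and named anew.

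Fosl1 (FRA-1), a late-rising FOS relative that is kept high by sustained MAP kinase signalling, was highest in tumor-like cells. It lies on chromosome 19 at 5447547 to 5455946, plus strand. Tumor-like cells held 352 CPM (346 to 359) in FLOX and 396 CPM (391 to 401) in MCT1-KO, followed by acinar-like cells in FLOX (149 CPM) and PSC-like cells in MCT1-KO (131 CPM), while macrophage-like cells held 18.5 and 24.4 CPM. The tumor-like class was the only class above free RNA (155 and 215 CPM) in either library. Thinned, 25.5% and 31.2% of tumor-like cells had a Fosl1 UMI, against 1.73% and 2.01% of macrophage-like cells, which should have little of it (unthinned 90.4% and 91.1% at a median depth of 18751 and 16501 UMIs, against 10.3% and 10.1% at 5924 and 4744 UMIs). The part of free RNA in the macrophage-like share was not tested. Fosl1 had a ratio above 1 in each of the 5 classes compared, at 1.12 (1.10 to 1.15) in tumor-like, 1.87 (1.55 to 2.26) in PSC-like, 1.31 in macrophage-like and 2.74 in T/NK-like cells, with 1.17 (0.845 to 1.60) in neutrophil-like cells. By alternative, the macrophage-like ratio ran up to 2.03 (cells classed by markers singly) and the neutrophil-like ratio from 0.798 (without cells of a second class) to 2.69 (clusters named by their classed cells). Outside the tumor-like class these ratios are of levels under that of free RNA, whose own Fosl1 level was also higher in MCT1-KO. The T/NK-like ratio turned to 0.422 without cells holding 3 or more markers of a second class and to 0.919 with a minimum of 1000 UMIs, and the PSC-like ratio ranged from 1.03 to 3.66 over the alternatives.

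**Figure D3:**
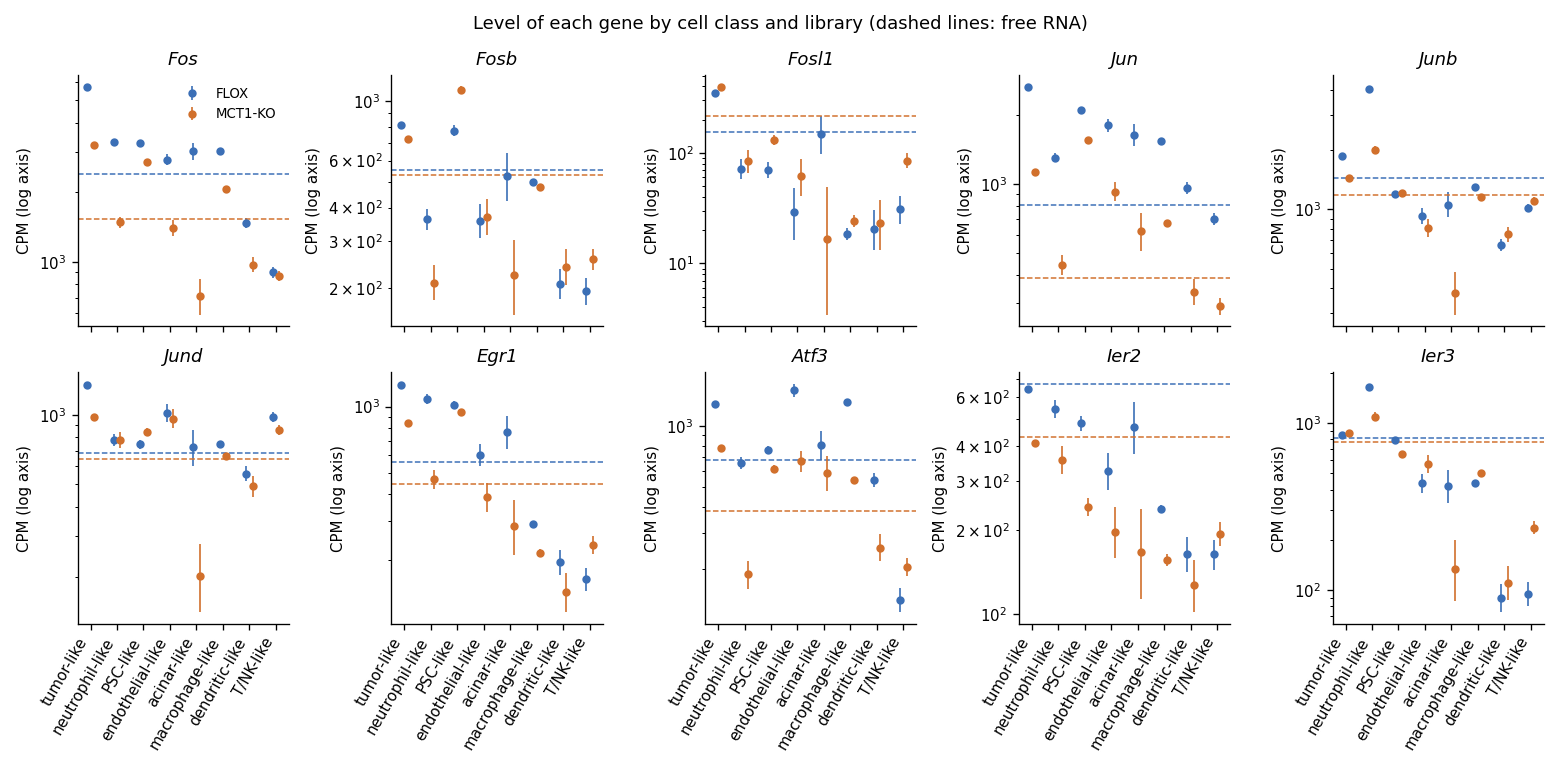
Each panel gives a gene's level (y axis, CPM on a log axis) in 8 cell classes (x axis) of the FLOX and MCT1-KO libraries, with 95% counting intervals and the free RNA level of each library as dashed lines. Fosl1 rises above its free RNA in tumor-like cells alone (352 and 396 CPM), and the FLOX points of Jun lie above the MCT1-KO points in all 8 classes.

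Jun (ENSMUSG00000052684, chromosome 4, 95049034 to 95052222, minus strand), the AP-1 subunit that JNK phosphorylates and that activates its own gene, was lower in MCT1-KO in 8 of 8 classes. Tumor-like cells held 2653 CPM (2635 to 2671) in FLOX and 1130 CPM (1121 to 1139) in MCT1-KO, a ratio of 0.426 (0.422 to 0.431). The ratio was 0.340 in neutrophil-like cells (1303 to 443 CPM), 0.353 in dendritic-like cells (956 to 338 CPM), 0.418 in T/NK-like cells (699 to 292 CPM), 0.438 in macrophage-like cells (1539 to 674 CPM) and 0.513 in endothelial-like cells (1804 to 925 CPM). PSC-like cells had a smaller difference, with 2108 CPM (2048 to 2169) in FLOX and 1557 CPM (1514 to 1601) in MCT1-KO, a ratio of 0.739 (0.710 to 0.769). Of the 8 compared classes they so became the class with most Jun in MCT1-KO. This smaller difference depends on which cells are called PSC-like, as the ratio was 0.497 with clusters named by their classed cells and 0.493 with cells classed by markers singly. Jun in free RNA went from 807 to 389 CPM.

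The share of cells showed the same. Thinned, 84.7% of FLOX and 59.2% of MCT1-KO tumor-like cells had a Jun UMI, 65.3% and 40.2% of macrophage-like cells, 58.2% and 23.1% of neutrophil-like cells and 41.5% and 14.9% of T/NK-like cells. In PSC-like cells it was 79.1% and 62.6%. Jun stayed below 1 in each class under every alternative that gave a value, with ratios between 0.241 and 0.848.

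Junb, which competes with JUN for the same partners and is an early gene of myeloid cells, was highest in neutrophil-like cells. It lies on chromosome 8 at 84974484 to 84978718, minus strand. Neutrophil-like cells held 4083 CPM (3974 to 4194) in FLOX and 1995 CPM (1901 to 2093) in MCT1-KO, a ratio of 0.489 (0.462 to 0.516). Tumor-like cells came next with 1863 and 1445 CPM (0.776), and these 2 classes were the only classes whose intervals lay above free RNA (1450 and 1184 CPM), with PSC-like cells of MCT1-KO at 1209 CPM (1171 to 1248). The other ratios were 0.896 in macrophage-like cells, 1.01 (0.961 to 1.06) in PSC-like cells, 1.09 (1.02 to 1.16) in T/NK-like cells and 1.13 (1.01 to 1.26) in dendritic-like cells. With free RNA subtracted the last 2 were 1.82 and 2.80, and Junb lay under free RNA in both classes. Thinned, 92.8% of FLOX and 79.6% of MCT1-KO neutrophil-like cells had a Junb UMI. The tumor-like ratio turned to 1.15 with no upper limit on detected genes.

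Jund, the constitutive JUN protein and the least inducible of the family, was also the most even over classes in FLOX. In MCT1-KO this held only with acinar-like cells (201 CPM) left out. It lies on chromosome 8 at 70698949 to 70700616, plus strand. The FLOX level ran from 557 CPM in dendritic-like to 1346 CPM in tumor-like cells, and the MCT1-KO level, leaving out acinar-like cells, from 491 to 982 CPM. In T/NK-like cells, where Fos stood below its free RNA, Jund stood above it, with 976 and 857 CPM against 687 and 646 CPM. The ratio was 0.729 (0.720 to 0.739) in tumor-like, 0.889 in macrophage-like, 0.878 in T/NK-like and 1.13 (1.06 to 1.20) in PSC-like cells, and it held 1 in neutrophil-like cells at 1.00 (0.907 to 1.11). The PSC-like ratio turned to 0.790 with cells classed by markers singly and to 0.807 with clusters named by their classed cells.

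Egr1, the zinc finger factor that reports MAP kinase and serum response factor activity, was highest in tumor-like cells in FLOX, with 1257 CPM (1245 to 1269), and in PSC-like cells in MCT1-KO, with 942 CPM (908 to 976). The tumor-like level in MCT1-KO was 839 CPM (831 to 847), a ratio of 0.667. The PSC-like level in FLOX was 1014 CPM, a ratio of 0.929 (0.879 to 0.981) that turned to 1.04 in thinned cells and 1.07 as the mean over cells. Neutrophil-like cells went from 1085 to 467 CPM, a ratio of 0.431 (0.384 to 0.482) that was 0.267 with free RNA subtracted. The interval of the MCT1-KO level held that of free RNA (445 CPM). Macrophage-like cells, which had little, went from 293 to 216 CPM.

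Atf3 (chromosome 1, 191170296 to 191218039, minus strand), the stress-induced CREB family factor that forms dimers with JUN proteins, had its highest FLOX level in endothelial-like cells, at 1490 CPM (1386 to 1600). Macrophage-like cells (1298 CPM) and tumor-like cells (1276 CPM) followed with overlapping intervals. In MCT1-KO these levels were 670, 542 and 777 CPM, with ratios of 0.449 (0.392 to 0.514), 0.418 (0.405 to 0.431) and 0.609 (0.601 to 0.618). Neutrophil-like cells held 661 and 189 CPM, and 0.285 (0.240 to 0.338) was the lowest ratio of the 10 genes outside the acinar-like class. Both of these levels lay under free RNA, and the ratio ranged from 0.0967 with free RNA subtracted to 0.697 with clusters named by their classed cells. Thinned, 59.2% of FLOX and 36.7% of MCT1-KO macrophage-like cells and 41.8% and 12.8% of neutrophil-like cells had an Atf3 UMI. Atf3 in free RNA went from 683 to 382 CPM.

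Ier2 and Ier3 are immediate-early genes outside AP-1, Ier2 encoding a small nuclear protein and Ier3 (IEX-1) a survival-linked target of NF-κB. Ier2 (chromosome 8, 84661331 to 84662852, minus strand) was below free RNA (672 and 434 CPM) in all 8 classes of the FLOX library and not above it in any of the MCT1-KO library. Free RNA was estimated at 10.9% and 3.85% of UMIs in tumor-like cells, and its part in the class pattern of Ier2 was not tested. The highest Ier2 level, in tumor-like cells, was 644 and 412 CPM, and its lowest ratio outside acinar-like cells was in PSC-like cells, 0.501 (0.456 to 0.549). Ier3 (chromosome 17, 35821684 to 35822923, plus strand) was highest in neutrophil-like cells, with 1652 CPM (1583 to 1723) in FLOX and 1094 CPM (1024 to 1167) in MCT1-KO, a ratio of 0.662. In tumor-like cells it was 848 and 879 CPM, a ratio of 1.04 (1.02 to 1.05). Macrophage-like (1.16) and endothelial-like cells (1.31) were above 1 as well. Ier3 and Fosl1 were thus the genes that were not lower with Jun and Fos in tumor-like cells, although the Ier3 ratio there fell below 1 when cells with 3 or more markers of a second class were left out (0.829) and when cells were classed by markers singly (0.897).

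In T/NK-like cells 7 of the 10 genes had ratios above 1, led by Fosl1 (31.0 to 84.9 CPM) and Ier3 (94.3 to 237 CPM). The summed level was 3851, 3351 and 4784 CPM in the lowest, middle and highest tercile of MCT1-KO T/NK-like cells by UMIs, against 4835, 4638 and 4113 CPM in FLOX, so that MCT1-KO was the higher library in the highest tercile alone. The median over single cells was 3875 CPM in FLOX and 2964 CPM in MCT1-KO. The T/NK markers stood at 8018 CPM in FLOX and 4793 CPM in MCT1-KO, the tumor markers at 153 and 320 CPM and the macrophage markers at 835 and 1376 CPM, and their part in the ratios was not tested. A FLOX cluster of 82 cells with T/NK markers and macrophage markers (5256 and 6812 CPM) stayed unnamed. Without the highest tercile Ier3 was at 0.668, Atf3 at 0.697, Egr1 at 0.731 and Fosb at 0.899, while Fosl1 (1.12), Ier2 (1.16) and Junb (1.05) stayed above 1. With a minimum of 1000 UMIs, under which cells were clustered and named anew, Atf3 (0.543), Egr1 (0.697), Fosb (0.779), Ier2 (0.865) and Fosl1 (0.919) were below 1. Junb alone of the 7 stayed above 1 under every alternative run, at 1.01 to 1.82, and the direction of the other T/NK-like ratios depends on which cells are counted.

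The clusters within the classes gave the same comparison between more similar cells. A cluster of each library was paired with a cluster of the other where they shared at least 3 leading genes, which gave 4 pairs of tumor-like clusters. The Enpp2 clusters of tumor-like cells (784 and 1001 cells) held 18362 and 13116 CPM of the 10 genes, a ratio of 0.714 (0.710 to 0.718), and the clusters with Spp1, Aqp5 and Krt18 among their leading genes (903 and 971 cells) held 16229 and 9679 CPM, a ratio of 0.596 (0.593 to 0.600). The cycling clusters (192 and 549 cells) had a ratio of 0.735, and the Spp1 cluster of FLOX against an MCT1-KO cluster led by Gbp2 and Iigp1 (283 cells) a ratio of 0.665. The Spp1 cluster of FLOX, used in both of these pairings with MCT1-KO, also had Ifit1, Ifit3, Gbp2 and Iigp1 among its leading genes. The Spp1 cluster of MCT1-KO had none of these, so that pair is alike only in part. Jun was lower in all 4 pairs, at 0.411 to 0.484. Ier3 differed by pair, at 0.978 (0.955 to 1.00) in the Enpp2 pair, 0.621 in the Spp1 pair, 1.10 in the cycling pair and 1.10 against the Gbp2 cluster. Fosl1 (FLOX and MCT1-KO) stood at 371 and 384 CPM in the Enpp2 pair and 327 and 328 CPM in the cycling pair. It was lower in the Spp1 pair (339 and 313 CPM) and higher against the Gbp2 cluster (339 and 374 CPM). The tumor-like level of Fosl1 and Ier3 in MCT1-KO drew on a cluster with no paired FLOX cluster, of 592 cells led by Lif, Cxcl1, Cxcl2 and Nfkb1, which held 601 CPM of Fosl1 and 1502 CPM of Ier3 but 2160 CPM of Fos, the lowest Fos level of the named tumor-like clusters.

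Macrophage-like clusters led by Apoe and C1q genes (1193 and 1245 cells) held 9616 and 6356 CPM, a ratio of 0.661 (0.653 to 0.669), and the cycling clusters (209 and 98 cells) 7458 and 4991 CPM, a ratio of 0.669. Clusters with Arg1 and F13a1 among their leading genes (306 and 496 cells) shared too few of these to be paired, and their sums lay close together at 7584 CPM in FLOX and 7482 CPM in MCT1-KO, with Egr1 at 319 and 497 CPM, Jun at 746 and 626 CPM and Atf3 at 765 and 457 CPM. Of the named clusters outside the tumor-like and neutrophil-like classes, a FLOX macrophage-like cluster of 433 cells led by Mertk and Cd83 was the highest, at 13516 CPM with 2937 CPM of Jun and 2120 CPM of Atf3. FLOX neutrophil-like cells formed 2 clusters, with 15167 CPM in the cluster led by Hdc and Il1r2 (559 cells) and 11689 CPM in the cluster led by Retnlg and Ngp (200 cells), and both lay above the MCT1-KO cluster (706 cells, 7102 CPM), at ratios of 0.468 and 0.608. PSC-like cells were 1 cluster in FLOX and 3 in MCT1-KO. Against the FLOX cluster, the MCT1-KO cluster led like it by Col1a2 and Sfrp1 (176 cells) had a summed ratio of 1.04 (1.02 to 1.07), with Fos at 1.01 (0.973 to 1.05) and Fosb at 1.77 (1.66 to 1.89), but Jun at 0.930, Ier3 at 0.803, Atf3 at 0.728 and Ier2 at 0.565, all with intervals below 1. The cluster led by Cfd, Hspb1 and Cxcl13 (234 cells) lay below, with a summed ratio of 0.745, Fos at 0.613 and Jun at 0.560. Its Fosb stood at 904 CPM, against 774 CPM in the FLOX cluster. It too shared leading genes with the FLOX cluster, namely Col1a2, Timp3, Calca, Hspb1 and Slit3, so both MCT1-KO clusters paired with it. These pairs are thus alike only in part. The remaining cluster (33 cells), led by Rgs5, Sparcl1 and Tagln with Higd1b and Ednrb, genes known from mural cells of vessels in part, had no paired FLOX cluster and the highest sum of the PSC-like clusters at 12073 CPM, with 4410 CPM of Fos. The PSC-like ratio therefore depends on which PSC-like cells are compared, and as the mean over single cells it was 1.01.

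**Figure D4:**
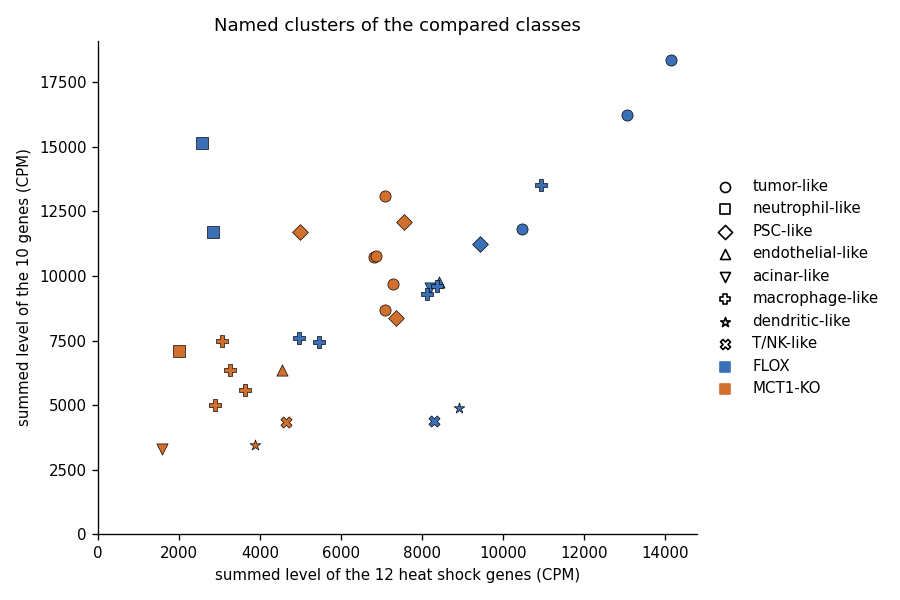
Each point is a named cluster of the compared classes, with the summed level of the 12 heat shock genes on the x axis and of the 10 genes on the y axis (both CPM), colour for the library and shape for the class. FLOX clusters lie to the right of MCT1-KO clusters of the same class. Neutrophil-like clusters have the lowest heat shock levels outside the acinar-like class. They hold 15167 and 11689 CPM of the 10 genes in FLOX and 7102 CPM in MCT1-KO.

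Heat shock genes, the other known mark of dissociation, were read as a list of 12 and were lower in the MCT1-KO library in all 8 classes. Their summed ratio was 0.531 in tumor-like, 0.674 in PSC-like, 0.539 in endothelial-like, 0.419 in macrophage-like, 0.752 in neutrophil-like, 0.434 in dendritic-like, 0.558 in T/NK-like and 0.192 in acinar-like cells, and 3998 against 7300 CPM stood in free RNA. In tumor-like cells 12 of 12 were below 1 with a median ratio of 0.367, against a median of 1.01 over all genes compared, and Hsph1, a chaperone cofactor, went from 371 to 33.0 CPM. In macrophage-like cells the inducible chaperone Hspa1a went from 1097 to 120 CPM. In T/NK-like cells Hspa1a stood at 529 CPM in FLOX and 19.9 CPM in MCT1-KO. Neutrophil-like cells had the smallest difference in heat shock genes and, outside the acinar-like class, the largest in the 10 genes, although with clusters named by their classed cells the summed ratio was 0.656 there and 0.645 in tumor-like cells. The heat shock level thus moved with library in every class, and its part in the levels of the 10 genes was not tested.

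Within single cells the correlation between the sets differed by library. Over thinned cells the Pearson correlation of summed UMIs of the 10 genes with those of the heat shock genes was 0.352 in FLOX and 0.0329 in MCT1-KO tumor-like cells, 0.428 and 0.0713 in macrophage-like cells, 0.324 and -0.0482 in PSC-like cells, 0.440 and 0.0757 in endothelial-like cells and 0.0172 and 0.0655 in neutrophil-like cells. With the other immediate-early genes it was 0.590 and 0.544 in tumor-like, 0.550 and 0.505 in macrophage-like and 0.592 and 0.578 in PSC-like cells, but 0.379 and 0.237 in neutrophil-like and 0.510 and 0.173 in dendritic-like cells. These are descriptions over cells of 1 library each, at 1 depth. At that depth MCT1-KO cells hold fewer heat shock UMIs, as these genes stood at 7061 CPM against 13310 CPM in FLOX tumor-like cells. Fewer UMIs lower a correlation by themselves, and their part in the difference was not tested. The number of the 10 genes seen per thinned tumor-like cell averaged 6.32 in FLOX and 5.39 in MCT1-KO, and 5.17 and 3.57 in neutrophil-like cells. Pairs of genes had low correlations in thinned cells, with a median of 0.112 and 0.0973 in tumor-like cells, where Fos and Jun had the highest (0.391 and 0.359). These cells held a median of 16 and 10 UMIs of the 10 genes together. So few UMIs lower a pair correlation by themselves, and how closely the genes go together at full depth was not tested. In macrophage-like cells Jun and Atf3 reached 0.369 in FLOX and 0.234 in MCT1-KO.

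**Figure D5:**
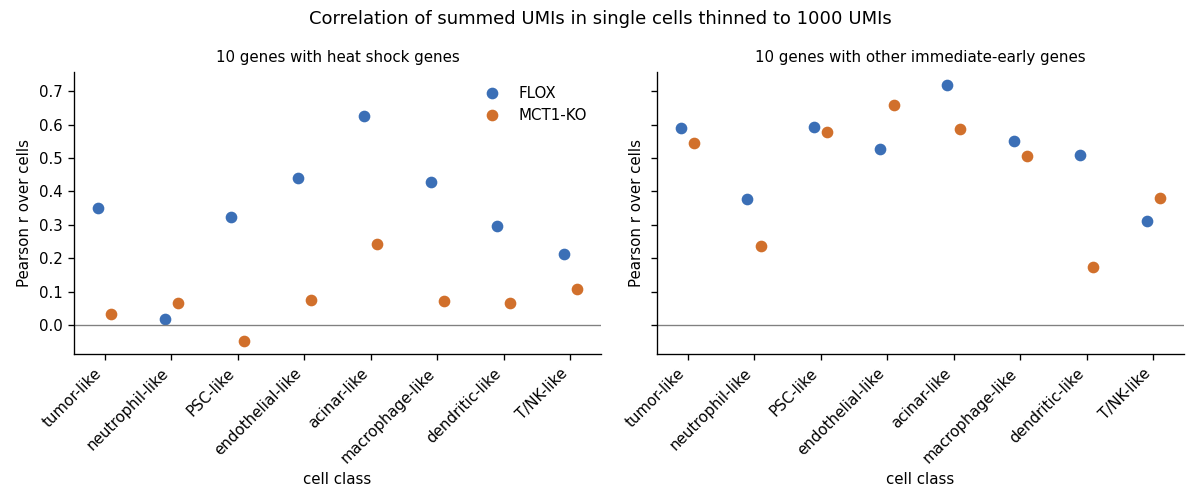
Points give, for 8 classes (x axis) and both libraries, the Pearson correlation (y axis) over cells thinned to 1000 UMIs between the summed UMIs of the 10 genes and those of the 12 heat shock genes (left) or of the 30 other immediate-early genes (right). FLOX points stand above MCT1-KO points on the left in 7 classes, with neutrophil-like cells near 0 in both, and lie closer together on the right for tumor-like, macrophage-like and PSC-like cells.

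The 30 other immediate-early genes were split. In tumor-like cells 17 of the 29 compared were below and 11 above 1 (26.3% and 29.9% over all genes), with a median ratio of 0.833 against 0.698 for the 10 genes. The lowest ratios were those of Zfp36, which destabilises AU-rich mRNAs (829 to 408 CPM, ratio 0.493), Rhob, a small GTPase (0.549), and Dusp1, a phosphatase that switches off p38 and JNK (2036 to 1203 CPM, 0.591). The higher ones were led by Myc (145 to 249 CPM, 1.72), Nr4a3 (1.57) and Nr4a2 (372 to 553 CPM, 1.49). Neutrophil-like cells had 16 of 27 below and 3 above (13.5% and 18.8% over all genes), led by Zfp36 (1875 to 511 CPM, 0.273) and Dusp1 (3614 to 1063 CPM, 0.294). In macrophage-like cells it was 16 of 29 below and 11 above (23.9% and 21.6%), with Klf10 (2.00) and Klf4 (1.61) highest. In PSC-like cells it was 7 of 29 below and 14 above (18.4% and 15.5%) and a median of 1.13, led by Myc (49.0 to 126 CPM), Sgk1 and Socs3. Immediate-early genes outside the 10 thus pointed both ways within a class.

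In the wider pathway, of 14 kinases and factors upstream, 2 were below and 4 above 1 in tumor-like cells (median 0.981), and of 13 other AP-1 family genes 12 were compared there, with 4 below and 3 above (median 0.912). Over all genes of the class 26.3% were below and 29.9% above 1, so the upstream list held no larger share than the background in either direction. Fosl2, the closest relative of Fosl1, was at 1.27 in tumor-like and 1.41 in macrophage-like cells. The 11 feedback genes split in tumor-like cells, 5 below and 5 above 1, with Zfp36, Zfp36l1 (0.580) and Dusp1 lower, and Spry2 (1.73), Dusp5 (1.61) and Dusp4 (1.42), which restrain the ERK branch, higher. Of 14 known AP-1 targets in tumor-like cells 6 were below and 5 above 1 (median 0.977), with Il1b (0.459) and Hmox1 (0.526) among the lower and Cd44 (1.21) and Plaur (1.18) among the higher. In PSC-like cells Timp1, an inhibitor of matrix metalloproteinases, was at 0.368 (1652 to 608 CPM), while Il1b (2.06), Cxcl1 (1.79) and Mmp3 (1.52) were higher. In all 3 were below and 4 above 1 among 11 compared there, against 18.4% and 15.5% over all genes of the class.

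Over the 16 values of 8 classes and 2 libraries the genes with the most similar log2 level, among 6222 genes with a mean of at least 20 CPM, were Usp33 for Fos (r = 0.941), Tmem176a for Fosb (0.927), Glis3 for Fosl1 (0.935), Smim7 for Jun (0.845), Ccnl1 for Junb (0.922), Fis1 for Jund (0.964), Anxa1 for Egr1 (0.897), Mcfd2 for Atf3 (0.825), Hist1h2bc for Ier2 (0.889) and Thbs1 for Ier3 (0.966). Among the 10 genes themselves the closest pairs were Egr1 and Ier2 (0.915), Fos and Jun (0.858) and Jun and Atf3 (0.827), and the most distant were Junb and Atf3 (0.0719). The values of a library share its depth and its free RNA, so these correlations describe the 16 points alone.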

How the data were processed

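Single-cell 3′ RNA libraries of 1 FLOX and 1 MCT1-KO tumor sample were used. The authors deposited raw UMI counts per gene and barcode, made with Fastp and SeekOneTools per the study's methods. The submitters' processing notes name Seurat 4.0.0 and GRCh38, while the deposited identifiers are of mouse genes, and which build gave the counts could not be settled here. The labels name a SeekOne MM microwell kit and the methods other kits. Positions are from GENCODE vM21 on GRCm38, matched by identifier.

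Barcodes with at least 500 UMIs, 200 to 5000 genes and a mitochondrial share up to 8% were kept. Each library was clustered without the 10 genes and the listed genes (python 3.11.15, scikit-learn 1.9.0, leidenalg 0.10.2, igraph 0.11.9; 2000 variable genes, 20 components, 20 neighbours, resolution 1). A cluster was named from fixed markers, and stayed unnamed with fewer than 4 detected in 10% of its cells, more markers of another class among its 10 leading genes, an own marker level under 25% of the highest of the class, or a second class at 20% or more. These limits were set after seeing the clusters. Markers per cell had been planned as the class rule but split classes poorly, and became an alternative. No doublet caller was run. Genes compared had at least 50 UMIs over both libraries in a class. UMIs were summed per class and library as CPM with exact Poisson 95% intervals, ratios with conditional exact intervals, and shares with Clopper-Pearson intervals (numpy 2.4.6, scipy 1.17.1, pandas 2.3.3; figures with matplotlib 3.10.9). The interval script was tested on simulated data. UMIs count molecules, and intervals cover counting error only.

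The genes and lists were chosen with earlier results of these data known. Named genes are the 10, up to 3 list genes each way by ratio in the class described, and the genes most similar in level. Cyr61 was read under its symbol Ccn1. Alternatives changed the UMI, gene and mitochondrial limits, the class rule, cells with 3 or more markers of a second class, free RNA, the CPM base, thinning and the weight of cells. Changes of the UMI, gene and mitochondrial limits came before clustering, so the classes were formed anew under them.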

Additional observations from a re-analysis of the deposited data

Results flagged for a closer look

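Some genes had lower levels in the MCT1-KO library in 1 class and higher levels in another, with counting intervals on opposite sides of 1. With 1 library per group the difference between classes was not tested. Fosb had a ratio of MCT1-KO to FLOX of 0.580 in neutrophil-like and 1.42 in PSC-like cells, and with clusters named by their classed cells these were 1.23 and 1.01. Junb had 0.489 in neutrophil-like and 1.13 in dendritic-like cells, where the ratio turned below 1 with a minimum of 1000 UMIs and rose to 2.80 with free RNA subtracted. Jund had 0.729 in tumor-like and 1.13 in PSC-like cells, the second turning to 0.790 and 0.807 under other class rules. Egr1 had 0.431 and Atf3 0.285 in neutrophil-like cells, against 1.44 and 1.45 in T/NK-like cells. Ier2 had 0.501 in PSC-like and 1.19 in T/NK-like cells, and Ier3 0.662 in neutrophil-like and 2.51 in T/NK-like cells. The T/NK-like values of Egr1, Atf3, Ier2 and Ier3 turned below 1 under some alternatives. Acinar-like cells were left out here, since most genes had low ratios there.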

How the results depend on the processing

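Of the 11 alternatives, 10 left the count of gene and class pairs below 1 at 36 to 51, the classes with a lower sum at 7 or 8, and the genes with the same highest class at 5 to 8. With cells holding 3 or more markers of a second class left out, 33 of 49 pairs and 5 of 5 classes were below 1. That filter counted any detected marker, without allowance for depth or free RNA. It took out 2872 of 6140 named FLOX cells and 6416 of 7786 named MCT1-KO cells, so its values rest on an uneven remainder. Jun was below 1 in every class under each alternative that gave a value. Fos was too outside T/NK-like cells. The values that turned to the other side of 1 follow, and the cause was not tested. In T/NK-like cells, a minimum of 1000 UMIs gave Atf3 0.543, Egr1 0.697, Fosb 0.779, Ier2 0.865 and Fosl1 0.919. Thinning gave Atf3 0.855, Egr1 0.862, Fosb 0.970, Fosl1 1.000 and Ier2 1.000. Leaving out cells with a second class gave Fosl1 0.422, Atf3 0.677, Ier3 0.712, Egr1 0.750 and Fosb 0.885. The mean over cells gave Egr1 0.896, Atf3 0.912, Ier3 0.984 and Fosb 0.996. Leaving out the tercile with most UMIs gave Ier3 0.668, Atf3 0.697, Egr1 0.731 and Fosb 0.899. Atf3 was 0.870 with classes by markers per cell and 0.857 with clusters named by their classed cells. In tumor-like cells, Fosb was 1.24 and Junb 1.15 with no upper limit on genes, Fosb 1.08 and Ier3 0.829 without cells of a second class, and Ier3 0.897 with markers per cell. In PSC-like cells, thinning gave Ier3 1.04 and Egr1 1.04, the mean over cells Egr1 1.07 and a sum of 1.01, markers per cell Jund 0.790 and Ier3 1.02, and clusters named by their classed cells Jund 0.807. In macrophage-like cells, Fosb was 1.00 with markers per cell and Egr1 1.00 with free RNA subtracted. In dendritic-like cells, Junb was 0.996 with a minimum of 1000 UMIs and 0.993 with no upper limit on genes, and clusters named by their classed cells gave Ier2 1.00 and Egr1 1.04. That naming also gave Fosb 1.23 in neutrophil-like cells and, in acinar-like cells, Egr1 1.05, Junb 1.30, Jund 1.33, Fosb 1.47, Ier3 2.02 and a sum of 1.04. Acinar-like Fosb was 1.04 with markers per cell, and Atf3 1.05 with CPM outside mitochondrial, ribosomal, heat shock and acinar marker genes and the 10 genes. At least 1 alternative moved 0 of 11 ratios in tumor-like, 1 of 11 in macrophage-like, 1 of 11 in PSC-like, 6 of 11 in neutrophil-like and 9 of 11 in T/NK-like cells by over 1.5 times, the summed ratio included. It was 1 of 10 in endothelial-like, 2 of 10 in dendritic-like and 10 of 10 in acinar-like cells. Free RNA subtraction used the shares estimated from acinar markers, which were too high for some genes in FLOX, and set negative levels to 0. It gave no value where less than 25% of a level was left, and several alternatives left a class with under 50 cells. No paired analysis was possible because each group has 1 library.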
